A study of Mus musculus with 22 samples.

Results

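The 7 control cultures kept for 4 h were compared with each other: the arrays of replicates 4 to 7 (n = 4) were set against those of replicates 1 to 3 (n = 3), all of them treated with the solvent DMSO. They are 7 of the 22 arrays of the series, chosen by their titles alone, and 22180 genes were measured on each. All cells came from wild-type C57Bl/6J mouse fetal liver at E14.5 (the embryonic day) and were grown on OP9-DL1, a stromal feeder line that displays the Notch ligand Delta-like 1. After culture they were sorted as SLAM LSK cells, a gate for haematopoietic stem cells, and the RNA of each sorted sample was hybridised to 1 array. Each replicate also has a partner sample that received a gamma-secretase inhibitor (GSI, 1 µM) for the same 4 h, and these 7 partner arrays were used to see which differences between cultures recur, to measure the spread within pairs and in fits with the pair as a block. Treatment did not differ between the groups compared. The design text calls the 7 replicates biological, and whether embryos were pooled is not given in the sources used here.

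Fetal liver is the main site where blood stem cells expand before birth. There the stem cells lie among erythroid precursors, macrophages, megakaryocytes, sinusoidal endothelium, hepatoblasts and stromal cells, and the culture adds a feeder layer of mouse stromal cells to these. The name SLAM LSK stands for cells without lineage markers that carry Sca-1 and Kit and are gated on SLAM family receptors. A sorted sample can still differ from the next in its few other cells and in the state the stem cells had reached.

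The sample descriptions carry codes that put replicate 1, replicates 2 and 3, and replicates 4 to 7 into 3 sets, and within the last set replicates 4 and 5 share a letter. The labels do not say what the codes stand for. The set of replicates 4 to 7 is the group compared, so that set and everything that was done differently for it cannot be told apart.

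Replicates 1 and 6 stood apart from the other 5 arrays. Over all genes, the median correlation of an array with the other 6 was 0.965 for replicate 6 and 0.971 for replicate 1, against 0.981 to 0.984 for the rest. The first principal component took 52.2% of the variance and ordered the arrays from replicate 1 (score -46.8) through replicates 2 (-24.9), 3 (-21.0), 4 (2.6), 7 (14.0) and 5 (15.8) to replicate 6 (60.3). It therefore placed replicates 1 to 3 on one side and replicates 4 to 7 on the other, with a wide spread inside each group. Replicate 6 held the highest value of the 7 arrays in 5760 genes (26.0% of all genes) and the lowest in 5010 (22.6%), and replicate 1 the highest in 4435 (20.0%) and the lowest in 4004 (18.1%). For some list medians and named genes that moved when they were left out, the value without them is given. Values given alone can depend on these 2 arrays as well.

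**Figure D1:**
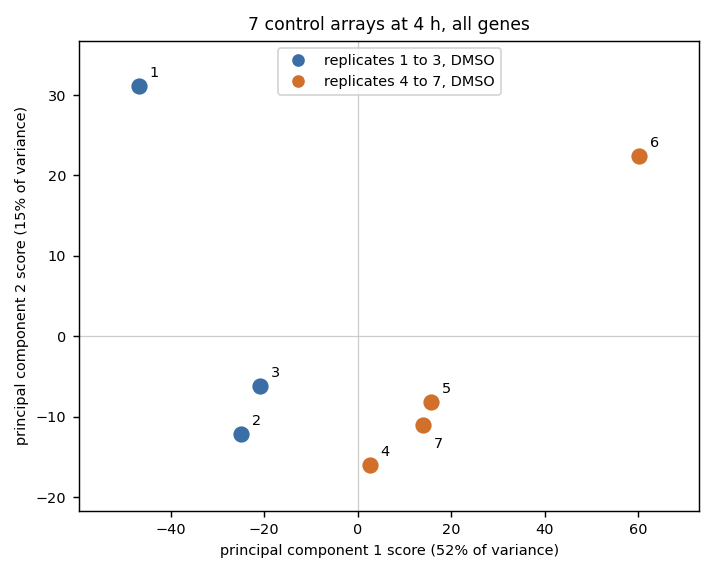
Scores of the 7 control arrays at 4 h on the first and second principal components of all 22180 genes; each point is an array, numbered by replicate and coloured by group. Replicate 1 (-46.8) and replicate 6 (60.3) lie at the ends of the first component, and the other 5 arrays lie between -24.9 and 15.8.

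Of the genes that define the gate, Kit could be read clearly. Kit, the stem cell factor receptor, lay at 9.87, 10.20 and 10.17 (log2 level) in replicates 1 to 3 and at 9.74, 9.81, 9.95 and 10.04 in replicates 4 to 7, with no separation of the groups. Slamf1, which encodes the SLAM receptor CD150, lay between 3.74 and 4.25, below the array medians over all probes (5.035 to 5.122) and with no detection call, and Ly6a, the gene of Sca-1, was not among the genes represented by a probe with 1 symbol. Cd48, a SLAM family gene used to exclude cells that are already more mature, read 4.73 in replicate 1, 5.54 in replicate 2 and 6.80 in replicate 3, but only 4.86 to 4.92 in replicates 4 to 7. The high value of replicate 3 is that of a single culture. Ptprc, the gene of the pan-leukocyte protein CD45, lay at 9.92, 9.75 and 9.93 in replicates 1 to 3, at 9.15, 9.06 and 8.68 in replicates 4, 5 and 7, and at 6.98 in replicate 6. All 4 later cultures were below the 3 earlier ones, replicate 6 by the widest margin.

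The comparison of replicates 4 to 7 with replicates 1 to 3 asks which genes separated these cultures by more than they varied among themselves. With limma, 11 of 22180 genes passed at an adjusted p under 0.05 (0.0496% of genes), 10 of them higher in replicates 4 to 7 (0.0451%) and 1 lower (0.00451%). The 10 that rose were Mxra8, Nid1, Parva, Cald1, Snai2, Enah, Ccdc80, Gpx8, Crip2 and Daam1, and H1f10 fell. Before adjustment 4266 genes (19.2%) had a p under 0.05, where 1109 would on average by chance. Genes vary together across the 7 arrays, so by chance alone the count can lie far from that average. The groups did not overlap in 4424 genes (19.9%), with all 4 later arrays above the 3 earlier ones in 2264 (10.2%) and below them in 2160 (9.74%).

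Mxra8, which codes for a matrix-associated membrane protein, lay at 5.94, 5.62 and 5.96 in replicates 1 to 3 and at 7.79, 7.52, 7.67 and 7.87 in replicates 4 to 7. The groups were clear of each other, and neither replicate 1 nor replicate 6 was extreme. It rose by 1.87 ± 0.153 (SE) on the log2 scale, a 3.66-fold increase (limma adjusted p = 0.0186). The other 2 probes of Mxra8 differed by 0.93 and -0.25, so the size of the change depends on the probe. Nid1, which codes for nidogen 1, a linker protein of basement membranes, lay at 8.31, 8.37 and 8.53 in the first group and at 9.83, 10.44, 10.78 and 10.16 in the second. It rose by 1.90 ± 0.204 (3.73-fold, limma adjusted p = 0.0496), and its other probe differed by 1.65.

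Ccdc80, a secreted matrix protein gene, had the largest change among the genes that passed, with values of 6.17, 5.55 and 5.74 in replicates 1 to 3 and 7.48, 7.81, 8.33 and 7.53 in replicates 4 to 7 (1.97 ± 0.239; 1.78 at its other probe). Snai2, the gene of the mesenchymal repressor Slug, read 5.82, 5.86 and 6.48, then 7.63, 7.84, 7.58 and 7.57, and rose by 1.60 ± 0.188. In all of these genes the lowest later culture lay above the highest earlier one. Parva (1.74), which links integrins to actin, Cald1 (1.45), the gene of the actin-binding protein caldesmon, Enah (1.57), which promotes actin filament growth, and Daam1 (1.07), a formin gene, rose as well. So did Gpx8 (1.95), a peroxidase of the endoplasmic reticulum, and Crip2 (1.73), a LIM domain protein gene. H1f10, which codes for a linker histone, was the gene that fell, from 6.42, 6.36 and 6.41 to 5.38, 5.47, 5.15 and 5.44 (a difference of -1.04 ± 0.125). The adjusted p was 0.0496 for each of the 10 genes other than Mxra8. The 11 genes lie on chromosomes 1 (Enah), 4 (Mxra8), 6 (Cald1 and H1f10), 7 (Parva), 12 (Crip2 and Daam1), 13 (Nid1 and Gpx8) and 16 (Snai2 and Ccdc80).

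**Figure D2:**
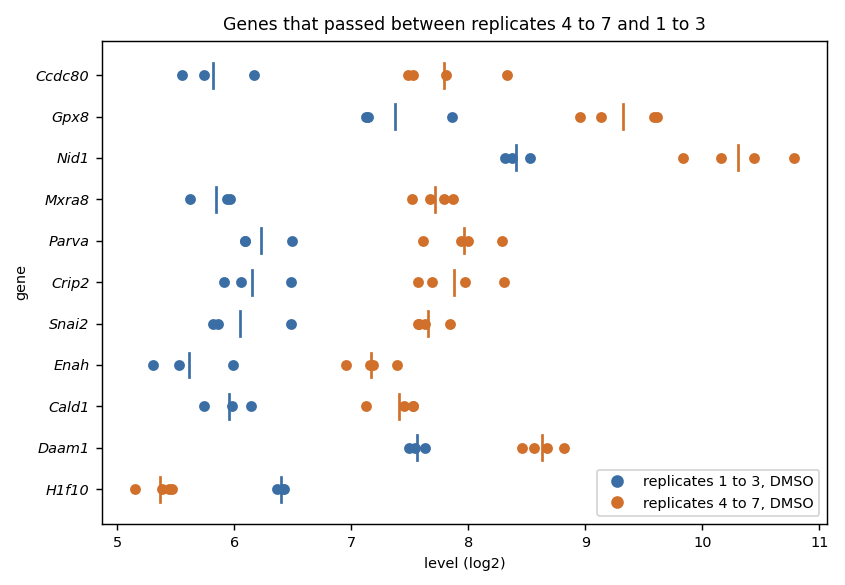
Log2 level of the 11 genes that passed between replicates 4 to 7 and replicates 1 to 3; points are single control arrays and vertical bars the means of a group. In each gene the points of both groups are apart, with Mxra8 between 5.62 and 5.96 in replicates 1 to 3 and between 7.52 and 7.87 in replicates 4 to 7.

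The count of 11 rests on single arrays. It was 0 without replicate 1, 2, 3, 5 or 7 and 7 without replicate 4, while without replicate 6 it was 305 (1.38% of genes), 212 higher and 93 lower, and without both replicates 1 and 6 it was 453 (2.04%), 311 higher and 142 lower. All 11 genes were among the 305 and among the 453. A fit of all 14 arrays at 4 h with the pair as a block borrows the partner arrays. It called 2104 genes (9.49%), again with all 11 among them, whereas the fit to 7 pair means called 0. In the fit to pair means 4789 genes had an unadjusted p under 0.05. The block fit took the same correlation within pairs for all genes (0.334). A gene whose pairs correlate more closely gets too small a p-value there, also where the block is cited below. Endothelial and cholesterol genes are such cases. Their median SD was 0.734 and 0.646 over the 7 control arrays but 0.174 and 0.156 within pairs. Over all genes it was 0.191 and 0.146.

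Stromal markers were also higher in replicates 4 to 7. The mean of 26 measured markers of fibroblasts and feeder stroma was 6.40, 6.46 and 6.62 in replicates 1 to 3 and 7.36, 7.85, 7.09 and 7.82 in replicates 4 to 7. Values were higher in replicates 4 to 7 for 25 of 26 markers, with all later arrays above all earlier ones in 11 (10.2% of all genes) and a median difference of 1.04 (-0.0059 over all genes). None passed among the 7 arrays. Within replicates 4 to 7 the stromal mean was lowest in replicate 6, where Nid1, Parva, Ccdc80, Gpx8, Crip2 and Daam1 were highest. Without replicate 6, 10 of the 26 passed upward (0.956% of all genes did), and without replicates 1 and 6, 12 did (1.40% of all genes). With the pair as a block 8 did (5.60% of all genes). The part that stromal RNA had in the 10 genes that rose was not tested. In sorted bulk samples, fewer cells of a type and less RNA per cell cannot be told apart.

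The stromal list was not uniform within replicates 4 to 7. Col1a2, a chain of type I collagen, lay at 7.86, 8.16 and 8.55 in replicates 1 to 3, at 10.32, 10.66 and 10.30 in replicates 4, 5 and 7, and at 8.30 in replicate 6. Replicate 6 therefore stayed at the level of the first group. The difference was 1.70 ± 0.507 (adjusted p = 0.133; 1.06 at the other probe) and 2.23 without replicate 6 (adjusted p = 0.0191). Col1a1 (6.94, 6.6 and 6.75, then 8.36, 9.01, 6.80 and 8.28), the cross-linking enzyme gene Lox and the smooth muscle actin gene Acta2 had the same shape, and Col6a1 read 5.18, 4.90 and 6.27, then 7.46, 7.20, 5.73 and 8.29. Without replicate 6 these 4 passed as well, with differences of 1.79, 1.93, 1.85 and 2.20. With the pair as a block neither Col1a2 nor any of these 4 passed (limma adjusted p from 0.0967 for Acta2 to 0.352 for Col6a1). In the GSI partner of replicate 1, Col1a2 read 9.96 and Col6a1 8.59. The differences of these 2 genes in the partners were 0.69 and 0.25.

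Other members of the list had no such dip in replicate 6. Ccn2, a matricellular growth factor gene, read 6.62, 8.85 and 9.19 in replicates 1 to 3 and 10.03, 10.30, 10.69 and 10.39 in replicates 4 to 7 (2.13 ± 0.533, adjusted p = 0.0956; 0.83 at the other probe), and 1.22 without replicates 1 and 6 (adjusted p = 0.0227). Sparc, a collagen-binding protein gene, read 8.85, 9.45 and 9.54, then 10.18, 10.37, 10.58 and 10.38. Replicate 1 was the lowest array in both, as it was in Thbs1, also a platelet gene, which read 5.85, 6.90 and 7.81, then 8.62, 8.95, 8.86 and 8.43. Dll1, the gene of the Notch ligand that the feeder line displays, read 7.08, 6.41 and 6.34, then 7.35, 7.78, 6.62 and 7.81 (0.78), and thus took the shape of the collagens, with replicate 6 at the level of replicates 1 to 3. Postn, a matrix protein gene of fibroblasts, was the 1 marker without a higher value in replicates 4 to 7 (-0.33), and Pdgfra, a fibroblast receptor gene, differed by 0.33.

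Endothelial markers separated the cultures in a graded way. Their mean over 20 genes was 7.45, 8.17 and 8.45 in replicates 1 to 3 and 8.72, 9.10, 9.91 and 9.02 in replicates 4 to 7, so the groups did not overlap. All 20 had higher values in replicates 4 to 7, 12 without overlap (10.2% of all genes), and the median difference was 1.05. No member passed; 16 had an unadjusted p under 0.05 (10.2% of all genes did in that direction). Every one of the 20 was highest in replicate 6, and 17 were lowest in replicate 1. The median difference was 0.84 without replicate 6 and 0.55 without replicates 1 and 6, where 7 of 20 passed (1.40% of all genes did in that direction). Flt1, Mmrn2 and Stab2 passed without replicate 6 alone, where 0.956% of all genes passed upward. With the pair as a block over 14 arrays 14 of 20 passed (5.60% of all genes did). The pairs of these genes lay closer than that fit assumes, so its p-values are too small here.

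Stab2, a scavenger receptor of liver sinusoidal endothelium, lay at 7.45, 8.62 and 8.95 in replicates 1 to 3 and at 10.04, 10.33, 11.20 and 10.12 in replicates 4 to 7. It differed by 2.08 ± 0.385 (adjusted p = 0.0735) and by 1.38 without replicates 1 and 6 (adjusted p = 0.0215). Mmrn2, an endothelial matrix protein gene, read 6.33, 6.25 and 7.43, then 8.24, 8.59, 9.62 and 8.50. Kdr, which codes for the main receptor for vascular endothelial growth factor, read 6.90, 7.86 and 8.32, then 9.12, 9.43, 10.52 and 9.25. In both genes the later cultures were all above the earlier ones, and replicate 6 was the highest. Cdh5, the gene of VE-cadherin, which fetal liver stem cells also make, read 8.73, 10.02 and 10.35, then 10.89, 11.30, 11.80 and 11.30. Egfl7, a secreted vascular factor gene, was the flattest member, between 10.20 and 10.81 (0.23). Tek is also on the stem cell list and Cdh5 on the list of sort genes.

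Genes of stem cell identity went the other way in most cases. The mean of 27 measured genes was 8.25, 8.22 and 8.19 in replicates 1 to 3 and 8.00, 8.01, 7.44 and 8.11 in replicates 4 to 7. Values were lower in replicates 4 to 7 for 19 of 27, with all later arrays below all earlier ones in 14 (9.74% of all genes), and the median difference was -0.38. None passed. The level of 19 of the 27 was lowest in replicate 6; the median difference without that array was -0.33, and 2 members then passed, Angpt1 (-1.02) and Runx1 (-0.88), where 0.419% of all genes passed downward. With the pair as a block 6 passed downward and 2 upward (3.89% and 5.60% of all genes).

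Angpt1, a growth factor gene expressed by stem cells, lay at 10.10, 10.09 and 9.85 in replicates 1 to 3, at 8.84, 8.86 and 9.28 in replicates 4, 5 and 7 and at 6.28 in replicate 6. Hlf, a transcription factor gene that marks self-renewing cells, read 8.64, 8.44 and 8.38, then 7.96, 7.97, 5.31 and 7.97. The groups did not overlap in either gene, and without replicate 6 the differences were -1.02 instead of -1.70 for Angpt1 and -0.52 instead of -1.19 for Hlf. Runx1, the master regulator of definitive blood formation, read 9.38, 9.0 and 9.06, then 8.09, 8.30, 7.07 and 8.41 (-1.18 ± 0.304, adjusted p = 0.102). Hoxa9 (-1.21) and Meis1 (-0.84), partners in stem cell self-renewal, and Mecom (-0.54) and Gata2 (-0.36), regulators of stem cell maintenance, were lower without overlap. Without replicate 6 these differences were -0.67, -0.41, -0.34 and -0.35.

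Other members of the stem cell list had higher values in replicates 4 to 7. Sox17, a regulator of fetal stem cells and of arteries, read 7.00, 7.72 and 7.98, then 8.36, 8.50, 9.26 and 8.70 (1.14; 0.67 without replicates 1 and 6). Tek, also an endothelial marker here, differed by 0.89 (0.39 without replicates 1 and 6), Fgd5 by 0.54, Procr by 0.28, Fli1 by 0.15 and Erg by 0.10, and each of these was highest in replicate 6 except Erg, which was highest in replicate 1. None of these 6 passed among the 7 arrays, and they were picked after their values were seen. With the pair as a block Sox17 (limma adjusted p = 0.00706) and Tek (limma adjusted p = 0.0384) passed.

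**Figure D3:**
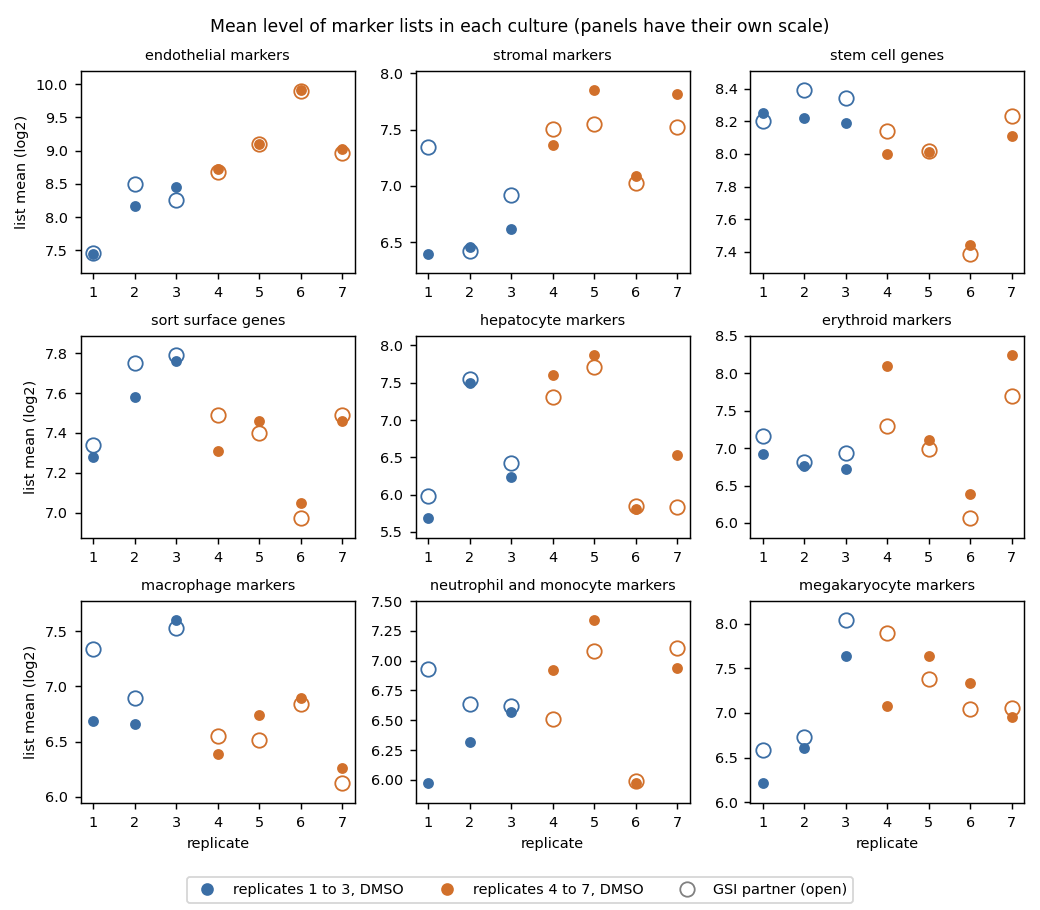
Mean log2 level of 9 marker lists in each of the 7 replicates; filled points are the control arrays, open points the GSI partners, and each panel has its own scale. The endothelial mean climbs from 7.45 in replicate 1 to 9.91 in replicate 6, the stem cell mean is lowest in replicate 6 (7.44), and hepatocyte markers are high in replicates 2, 4 and 5.

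Among genes of the sort and of early progenitors, Cd34, a sialomucin gene of stem cells and progenitors, read 11.45, 11.33 and 11.35, then 10.75, 10.69, 9.63 and 10.39. It differed by -1.01 ± 0.240 (adjusted p = 0.0903), and by -0.77 without replicate 6 (adjusted p = 0.0290). Flt3, the receptor gene of multipotent progenitors, read 5.64, 6.92 and 6.48, then 5.42, 5.57, 3.79 and 5.84, and Cd27, another progenitor surface gene, read 7.54, 8.05 and 7.52, then 6.09, 6.12, 4.80 and 6.65 (-1.79 ± 0.386, adjusted p = 0.0837). Both were lowest in replicate 6. The 11 measured sort genes had a median difference of -0.19 and the 15 early progenitor genes of 0.07. Of those 15, 8 had higher and 7 lower values in replicates 4 to 7. Among the higher ones were Ctsg (1.09) and Elane (0.81), which encode granule proteases, and Irf8, a regulator of monocytes and dendritic cells, at 7.35, 8.95 and 9.21, then 10.08, 10.31, 10.95 and 10.19 (1.88; 1.53 at its other probe; 1.11 without replicates 1 and 6).

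Hepatocyte markers varied more between cultures than any other cell type list, and not along the split into groups. Their mean over 27 genes was 5.68, 7.50 and 6.23 in replicates 1 to 3 and 7.60, 7.87, 5.81 and 6.53 in replicates 4 to 7. Replicates 2, 4 and 5 were high and replicates 1 and 6 low, so both groups held high and low cultures. Alb, the albumin gene, read 7.70, 10.53 and 8.39, then 10.76, 10.96, 7.81 and 8.83, a range of 3.26 on the log2 scale. Afp, the gene of fetal alpha-fetoprotein, read 7.26, 10.77 and 8.98, then 10.97, 11.21, 7.97 and 9.59. The order of cultures was nearly that of Alb. The median difference between groups was 0.60, 0.12 without replicate 1 and 1.25 without replicate 2, and 1 member lay above the earlier arrays in all later ones (10.2% of all genes). The fatty acid carrier gene Fabp1 (4.00, 8.20 and 5.41, then 8.66, 8.70, 5.91 and 6.83), which is on no list here, and the fibrinogen genes Fga, Fgb and Fgg were among the 12 genes with the largest SD over the 7 arrays, each with its lowest values in replicates 1, 3 and 6.

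Erythroid markers were high in replicates 4 and 7. The mean of 22 genes was 6.92, 6.76 and 6.72 in replicates 1 to 3 and 8.09, 7.11, 6.39 and 8.24 in replicates 4 to 7. Values were higher in replicates 4 to 7 for 21 of 22, but 0 members were free of overlap, and replicate 6 had the lowest mean of all. Slc4a1, the gene of the red cell anion exchanger band 3, read 8.57, 7.33 and 7.01, then 9.24, 8.15, 7.17 and 9.48. Hbb-bh1, an embryonic globin gene, read 6.06, 5.14 and 5.32, then 8.22, 4.96, 5.25 and 8.35, and Hbb-y, the other embryonic beta globin gene here, stood at 8.90 in replicate 7 and at 4.83 to 6.48 elsewhere. Transcripts of near-identical globin genes can share probes, so single globin values are uncertain. The median difference was 0.72, 1.08 without replicate 6 and 0.40 without replicate 7. Cldn13 (1.55) and Hemgn (1.42) passed without replicate 6, where 0.956% of all genes passed upward, but not with the pair as a block.

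Macrophage markers were highest in replicate 3, with means of 6.69, 6.66 and 7.60 in replicates 1 to 3 and 6.39, 6.74, 6.89 and 6.26 in replicates 4 to 7. Of 22 markers 17 had lower values in replicates 4 to 7, 6 without overlap (9.74% of all genes), and the median difference was -0.64, or -0.06 without replicate 3. Spic, the regulator of red pulp and erythroblast island macrophages, read 6.94, 6.27 and 8.90, then 5.85, 6.09, 6.22 and 5.25. Csf1r, the receptor gene of the macrophage growth factor, read 7.50, 7.74 and 8.98, then 6.69, 7.17, 6.91 and 6.71. C1qa, a complement gene, read 7.03, 6.82 and 7.65, then 6.03, 6.11, 6.44 and 6.04. All 3 were lower in every later culture, and none passed. Cd68, a lysosomal macrophage gene, read 9.35, 9.32 and 9.73, then 8.46, 8.72, 8.48 and 8.63 (-0.89 ± 0.141), and passed without replicate 6 (-0.86). With the pair as a block 8 of 22 passed downward and 2 upward (3.89% and 5.60% of all genes). Mrc1, the mannose receptor gene, which sinusoidal endothelium also expresses, followed the endothelial order instead, from 6.55, 7.74 and 8.57 to 9.15, 9.23, 10.26 and 9.15.

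Granule genes of neutrophils and their precursors were low in replicates 1 and 6. The mean of the 22 neutrophil and monocyte markers was 5.97, 6.32 and 6.57, then 6.92, 7.34, 5.97 and 6.94, and the median difference was 0.57 (0.88 without replicate 6). Camp, an antimicrobial peptide gene, read 6.07, 7.94 and 8.07, then 9.42, 9.84, 7.25 and 9.0, and Mpo, the gene of myeloperoxidase, read 7.97, 8.73 and 8.49, then 9.31, 9.61, 7.84 and 10.01. Both genes were lowest in replicates 1 and 6. Megakaryocyte genes had means of 6.21, 6.61 and 7.64, then 7.08, 7.64, 7.34 and 6.95, with a median difference of 0.31 (0.01 without replicates 1 and 6). Ppbp, a platelet chemokine gene, had one of the largest spreads of all, at 4.89, 6.52 and 9.84, then 8.73, 10.03, 9.76 and 8.81, and Pf4, another platelet chemokine gene, read 7.53, 9.32 and 10.85, then 9.82, 10.66, 10.20 and 9.31. Mast cell and basophil genes had a median difference of 0.05, with the basophil protease gene Mcpt8 at 7.87 in replicate 7 and at 4.49 to 5.93 elsewhere. The 19 lymphoid genes had a median difference of -0.03. Ebf1, a B-lineage regulator that stromal cells also use, was the exception, at 5.59, 5.94 and 6.12, then 7.01, 7.08, 7.73 and 7.19 (1.37; 1.21 and adjusted p = 0.0294 without replicate 6).

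Interferon response genes had the largest median SD over the 7 arrays of all 29 lists. The response starts when interferon receptors activate the factor complex ISGF3, which binds a short element in promoters, and its products block viral replication. The mean of 16 genes was 9.45, 7.02 and 7.12 in replicates 1 to 3 and 8.22, 8.60, 6.80 and 6.92 in replicates 4 to 7. Replicate 1 was far the highest, replicates 4 and 5, which share a code letter, came next, and the other 4 lay close together. All 16 genes had their highest value in replicate 1 (20.0% of all genes did). The median difference between groups was -0.28, 0.52 without replicate 1 and 0.91 without replicates 1 and 6. Without replicate 6 alone the members differed by -0.15 (Stat2) to 0.26 (Mx2). The sign of the median thus depends on single arrays, replicate 1 and replicate 6 among them.

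Ifit1, which binds foreign RNA, read 10.13, 7.09 and 7.49 in replicates 1 to 3 and 8.58, 9.23, 5.95 and 6.96 in replicates 4 to 7. Isg15, a ubiquitin-like modifier gene, read 9.83, 7.13 and 7.09, then 8.60, 9.06, 7.33 and 7.05. Rsad2, the gene of the antiviral enzyme viperin, read 9.45, 6.29 and 6.94, then 8.11, 8.77, 6.82 and 6.55. Replicates 1, 5 and 4 were the highest in all 3 genes, in that order, and the order of the others differed. Oas1g, an antiviral synthetase gene that belongs to a family of close copies, read 9.53, 5.70 and 6.25, then 7.70, 7.70, 3.48 and 5.66. Cxcl10, an interferon-induced chemokine gene on the inflammatory list, read 11.56, 8.09 and 8.47, then 9.84, 10.32, 9.67 and 8.53.

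The promoters of Ifit1, Isg15 and Rsad2 are shown because these genes moved together across the cultures and carry the interferon element. The sequences are the 250 bases before the RefSeq start of each gene in GRCm38.p6, matched by gene symbol and written 5′ to 3′ on the gene's strand: chr19:34640639-34640888 (plus strand) for Ifit1, chr4:156200819-156201068 (minus strand) for Isg15 and chr12:26456453-26456702 (minus strand) for Rsad2. Capitals mark matches to the core of the interferon element, GAAANNGAA, on either strand, 3 in Ifit1, 3 overlapping in Isg15 and 1 in Rsad2, where matches that overlap share their capitals.
Ifit1: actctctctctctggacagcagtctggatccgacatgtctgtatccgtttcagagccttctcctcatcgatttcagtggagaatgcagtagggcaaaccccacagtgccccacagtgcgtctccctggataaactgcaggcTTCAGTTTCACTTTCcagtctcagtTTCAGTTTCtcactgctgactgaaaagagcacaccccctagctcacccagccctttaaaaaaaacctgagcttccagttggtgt
Isg15: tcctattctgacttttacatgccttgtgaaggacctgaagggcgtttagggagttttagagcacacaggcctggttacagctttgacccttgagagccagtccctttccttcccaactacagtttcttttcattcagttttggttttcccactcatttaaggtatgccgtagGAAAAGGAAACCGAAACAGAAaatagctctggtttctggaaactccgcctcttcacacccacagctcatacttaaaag
Rsad2: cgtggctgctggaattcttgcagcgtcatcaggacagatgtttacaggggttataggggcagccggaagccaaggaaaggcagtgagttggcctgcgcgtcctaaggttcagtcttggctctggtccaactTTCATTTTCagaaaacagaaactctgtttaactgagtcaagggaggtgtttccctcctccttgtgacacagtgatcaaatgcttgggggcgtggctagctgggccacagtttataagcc
In windows of 300 bases that include the first 50 after the start, this element was found in 7 of the 12 interferon genes with a promoter in the table (58.3%), namely Bst2, Ddx58, Ifit1, Ifit3, Isg15, Rsad2 and Stat2, and in 1576 of 16990 measured genes with a promoter there (9.28%). Ifit3 and Bst2 hold it too, yet varied less between cultures, with SDs of 0.263 and 0.442 against 1.46 for Ifit1. A match describes these letters only. Core letters of the liver factor HNF1 (GTTAATNAT), searched the same way, were in the promoters of Afp, Alb and Fga, 3 of 24 hepatocyte genes (12.5%) and 146 of 16990 (0.859%). A core of the SREBP element (TCACCCCAC) was in that of the synthase gene Hmgcs1, 1 of 13 cholesterol genes (7.69%) and 111 of 16990 (0.653%). A core of the serum response factor site (CATATTAGG) was in 0 of 22 immediate-early promoters and 18 of 16990 (0.106%). That exact string is so rare that 0 among 22 promoters was likely beforehand, so nothing about serum response sites follows from it.

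Cholesterol synthesis genes were lowest in replicate 6 and highest in replicate 1. The pathway builds sterols from acetyl-CoA and is switched on by SREBP2 when sterols run low. The mean of 16 genes was 8.83, 8.44 and 8.16 in replicates 1 to 3 and 7.80, 7.93, 6.88 and 7.89 in replicates 4 to 7. All 16 had lower values in replicates 4 to 7, 11 without overlap (9.74% of all genes), with a median difference of -0.82 and none past the test. All 16 were lowest in replicate 6 (22.6% of all genes were) and 15 highest in replicate 1. With the pair as a block 10 of 16 passed downward (3.89% of all genes), with p-values that are too small because the pairs lay closer than that fit assumes. Lss, lanosterol synthase, read 8.10, 7.35 and 7.12, then 5.91, 6.58, 4.92 and 6.58 (-1.52 ± 0.415, adjusted p = 0.111). Msmo1, a sterol demethylation enzyme gene, read 9.51, 8.64 and 8.50, then 7.65, 8.02, 6.48 and 7.63 (-1.44). Srebf2, the gene of SREBP2, read 9.97, 9.55 and 9.23, then 8.95, 8.98, 8.56 and 8.99. The groups were apart in each of these genes. The median difference was -0.55 without replicate 6 and -0.40 without replicates 1 and 6, where Msmo1 passed (-0.81).

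Immediate-early genes, which cells switch on within minutes of stimulation or handling, were highest in replicate 6. Their mean over 25 genes was 8.30, 8.16 and 8.21, then 8.46, 8.99, 9.55 and 8.68. Values were higher in replicates 4 to 7 for 23 of 25, 11 without overlap (10.2% of all genes), the median difference was 0.71 (0.49 without replicate 6), and 24 of 25 were highest in replicate 6 (26.0% of all genes). Fos, a subunit of the AP-1 factor, read 6.56, 6.78 and 6.91, then 7.53, 8.50, 9.54 and 8.10 (1.67 ± 0.401, adjusted p = 0.0920). Gadd45b, a stress response gene, read 8.45, 8.49 and 8.82, then 9.75, 10.35, 11.06 and 9.84 (1.67), and Atf3, a stress transcription factor gene, read 7.91, 9.04 and 9.41, then 10.01, 10.60, 10.99 and 10.03 (1.62). In all 3 the later cultures were above the earlier ones and ranked, from low to high, 4, 7, 5 and 6. Fos (1.29), Gadd45b (1.40) and Jun (0.56) passed without replicate 6, where 0.956% of all genes passed upward. With the pair as a block 10 of 25 passed (5.60% of all genes).

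Targets of p53 had a median difference of 0.33 (0.53 without replicate 6) over 15 genes, 7 of them higher without overlap (10.2% of all genes). Cdkn1a, the gene of the cell cycle inhibitor p21, read 9.79, 9.76 and 10.14, then 10.61, 11.19, 11.56 and 11.17 (1.24 ± 0.203, adjusted p = 0.0735). Fas, a death receptor gene, read 6.25, 6.35 and 6.28, then 7.40, 7.64, 8.54 and 7.53 (1.49). Both were clear of overlap, and both passed without replicate 6 (1.10 and 1.23), where 0.956% of all genes passed upward. With the pair as a block 6 of 15 passed upward (5.60% of all genes). Of 11 heat shock genes 8 had higher values (median 0.29); Bag3, a co-chaperone gene, differed by 1.16, whereas the constitutive chaperone gene Hspa8 differed by -0.03. Hspa1b, a heat-inducible chaperone gene with a near-identical copy, Hspa1a, read 6.20 in replicate 1 and 8.69 to 10.55 in the others.

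**Figure D4:**
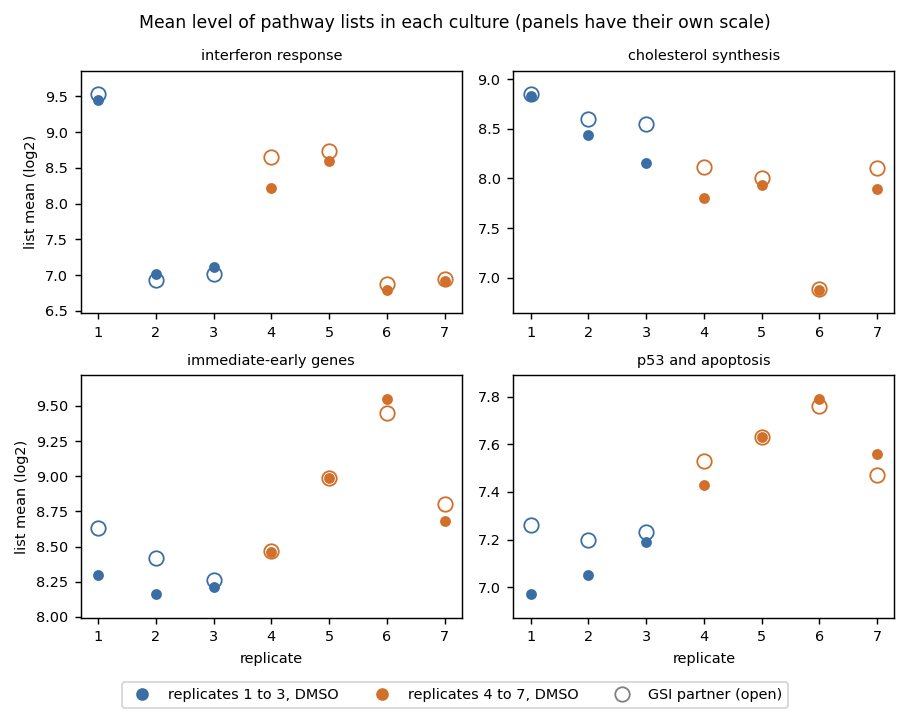
Mean log2 level of interferon, cholesterol, immediate-early and p53 genes in each replicate; filled points are control arrays and open points their GSI partners, with a scale of its own in each panel. Interferon genes are highest in replicate 1 (9.45) and next in replicates 4 and 5 (8.22 and 8.60), cholesterol genes are lowest in replicate 6 (6.88) and immediate-early genes highest there (9.55).

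Inflammatory genes had a median difference of 0.25 (0.69 without replicates 1 and 6) over 20 genes and no common order. Csf1, the macrophage growth factor gene, read 7.96, 8.14 and 7.66, then 9.05, 9.68, 9.87 and 9.18 (1.53 ± 0.220, adjusted p = 0.0735; 1.39 without replicate 6, where it passed), while Il1b, an interleukin gene, read 10.72 in replicate 1 and 6.44 to 8.13 elsewhere. Genes of the amino acid response and of protein folding stress differed by a median of 0.13, with Ddit3, the gene of the stress factor CHOP, at 0.73. The serine synthesis genes Phgdh (-0.87) and Psat1 (-0.47) were lowest in replicate 6, at 6.64 and 7.56, and differed by -0.48 and -0.23 without it. Genes of hypoxia and glycolysis had a median difference of -0.07. Within that list Pfkfb3 (1.16) and Ndrg1 (1.21) were higher and Car9 (-1.03) lower, each without overlap.

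Growth and housekeeping lists had median differences between -0.21 and 0.07. DNA replication genes were lower in replicates 4 to 7 in 20 of 22 cases (median -0.21, or -0.10 without replicate 6), mitosis genes in 21 of 25 (median -0.09), and replicate 6 held the lowest value in 19 and 14 of them. The 19 genes of Myc-driven ribosome biogenesis had a median difference of 0.02, 24 ribosomal protein genes of -0.06, 20 nuclear respiratory chain genes of -0.08, 7 genes of the mitochondrial genome of 0.00 and 9 histone genes of 0.07. Notch targets differed by a median of 0.11 over 15 genes. Hes1, the classical target, read 7.49, 8.08 and 8.30, then 8.08, 8.80, 9.76 and 8.39 (0.80 ± 0.376, adjusted p = 0.290; 0.47 without replicate 6), and was highest in replicate 6. Hey1 (0.64), Nrarp (0.62) and Hes5 (-0.66; -0.07 at its other probe) did not pass either.

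Sex-linked genes also varied between cultures. Xist, which silences an X chromosome in female cells, read 11.38, 10.44 and 10.80, then 11.36, 10.62, 9.55 and 11.15, and the Y-linked gene Kdm5d read 6.96, 7.59 and 7.45, then 5.94, 7.30, 7.04 and 6.18. Kdm5d was lowest in replicates 4 and 7, where Xist was high. The 5 sex-linked genes had a median difference of -0.39, and none passed.

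The spread between cultures was larger than the spread within a pair. The SD of a gene over the 7 control arrays had a median of 0.191, and the SD within pairs of a control and its GSI partner, after removal of the mean difference between treatments, had a median of 0.146. The first was above the second in 16064 genes (72.4%). The SD over the 7 arrays exceeded 1 in 319 genes (1.44%), and 272 of these had an SD within pairs under 0.5. Among lists, the median SD over arrays was 1.15 for interferon genes and 1.07 for hepatocyte markers, against 0.206 and 0.285 within pairs; for endothelial markers it was 0.734 against 0.174 and for ribosomal protein genes 0.140 against 0.0737.

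**Figure D5:**
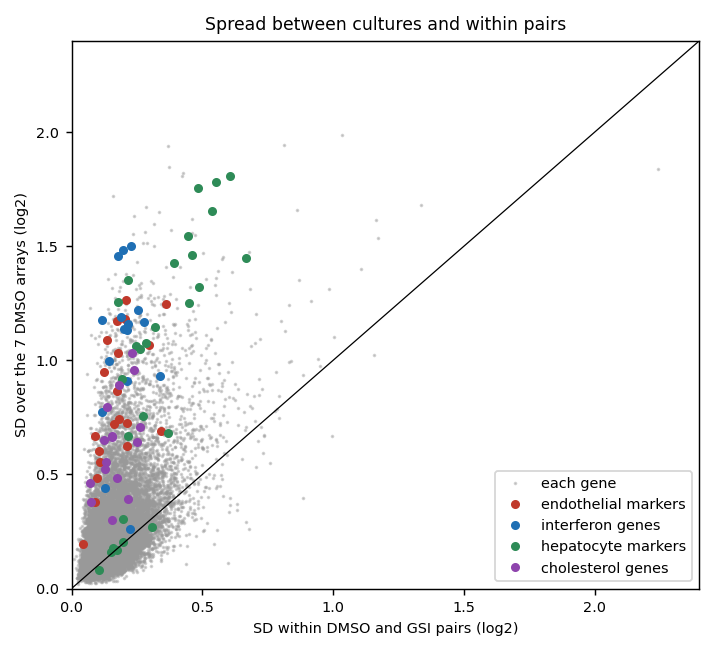
SD of each gene over the 7 control arrays (vertical axis, log2) against its SD within pairs of control and GSI partner (horizontal axis, log2); the line marks equality and 4 lists are coloured. Endothelial, interferon, hepatocyte and cholesterol genes lie mostly above the line, as do 72.4% of all genes.

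The 12 genes with the largest SD over the control arrays were Csta3, Ppbp, Oas1g, Edn1, Prg2, Serpina1d, Fabp1, Fga, Fgg, Fgb, Gm8995 and Hamp. Edn1, which codes for the vasoconstrictor endothelin 1, read 5.62, 8.60 and 8.65, then 10.15, 10.51, 11.01 and 10.24 (2.86 ± 0.663, adjusted p = 0.0899), and passed without replicates 1 and 6 (1.68, adjusted p = 0.0169). Its SD was 1.85 over arrays and 0.371 within pairs. Csta3, a protease inhibitor gene of the stefin family, read 2.89, 6.47 and 6.06, then 8.64, 7.19, 4.45 and 7.82. Prg2, an eosinophil granule protein gene, read 4.38 in replicate 4 and 10.23 in replicate 5, and differed as widely within pairs (SD 2.24) as between arrays (1.84). In the other 11 genes the SD over arrays was the larger.

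Genes at the ends of the first principal component, picked after its scores were seen, were of several kinds. Among the 15 at the end of replicate 6 were Edn1, Ppbp, the metabolic kinase gene Pdk4, the protease gene Adam19, the lymphatic and sinusoidal receptor gene Flt4 (5.86, 6.51 and 6.41, then 7.91, 8.57, 9.58 and 8.02), the vascular adhesion genes Mcam and Sele, and Plau, another protease gene. Among the 15 at the end of replicate 1 were the interferon-induced genes Oas1g, Oas2, Epsti1, Mndal and Trim30d together with Angpt1, the globin switch regulator Bcl11a (10.67, 9.99 and 9.59, then 9.24, 9.11, 6.68 and 9.22) and Dock2, a migration gene of leukocytes (9.59, 9.18 and 9.17, then 8.34, 8.32, 5.89 and 8.39).

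The GSI partners, which come from the same replicates and are no independent repeat are described next. Each partner correlated with its own control at 0.989 to 0.994 over all genes. Between partners 4 to 7 and 1 to 3, limma called 0 of 22180 genes (lowest adjusted p = 0.158; 3715 genes, 16.7%, at an unadjusted p under 0.05). All 11 genes that passed in the controls had the same sign in the partners, 8 of them without overlap (9.12% of all genes lay wholly above and 9.22% wholly below), with 1.15 for Mxra8, 0.96 for Nid1 and -0.59 for H1f10. The difference itself was not shown to depend on treatment: 0 genes passed the interaction test in limma (lowest adjusted p = 0.383; 1632 genes, 7.36%, at an unadjusted p under 0.05).

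List medians in the partners were 0.97 for endothelial, -0.47 for stem cell, -0.91 for cholesterol and 0.55 for immediate-early genes. The stromal median was 0.44, below the 1.04 of the controls, and the stromal mean of the partner of replicate 1 was 7.35 where its control had 6.40. The same partner lay above its control by 0.97 in the neutrophil and monocyte mean and by 0.65 in the macrophage mean, the widest of the 7 pairs in both lists. The erythroid and hepatocyte medians were 0.16 and 0.06 in the partners, against 0.72 and 0.60 in the controls. In pairs 4, 5 and 7 the partner had less of both. Erythroid means there were 7.30 against 8.09, 6.99 against 7.11 and 7.69 against 8.24. Hepatocyte means were 7.31 against 7.60, 7.71 against 7.87 and 5.84 against 6.53. In pairs 1 to 3 the partner had more of both, and in pair 6 it had less of the erythroid mean only.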

How the data were processed

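The authors deposited log2 expression values of 1-colour arrays, made with RMA in Partek 6.6 per the submitters' processing notes; the genome build of the array is not given in the sources used here. Values on the 7 arrays ran from 1.949 to 13.864, array medians from 5.035 to 5.122, and no detection calls were used, so precision is limited by the number of arrays. Of 41345 probes, 23521 carried 1 gene symbol, 1814 several and 16010 none; each of the 22180 genes was represented by its 1-symbol probe with the highest mean over the 7 arrays (1082 genes had more than 1 probe), with no filter on dim probes.

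Replicates 4 to 7 were compared with replicates 1 to 3 by limma 3.58.1 (R 4.3.3, lmFit and eBayes with an intensity trend, two-sided), with Benjamini-Hochberg adjustment over all genes and a threshold of 0.05. The same fit was run on the GSI partners and on the 7 paired GSI minus DMSO differences. The fit was tested on simulated data with independent errors for each gene and array. Those data hold no differences shared by the genes of a culture, so the test does not cover them. P-values measure the spread between these samples. SE is the standard error of a difference; list values are means and medians over measured members, with no test.

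The design text pairs each DMSO with a GSI sample, so replicate numbers pair the arrays; deviations from group means correlated at 0.223 to 0.873 within pairs, and for 6 of 7 arrays the highest correlation was with the own partner. Named genes were those that passed, the 12 with the largest SD, up to 4 members of each list with the largest difference, and members needed to account for a count; further members and the genes at the ends of the first component were chosen after their values were seen. The comparison and the 29 gene lists were chosen with earlier results of these data known. Motifs, whose letters were shortened to 9 after longer forms had been searched, the fit without replicates 1 and 6 and the fit to pair means were chosen after seeing the data. Other alternatives were other trends, normalizations and probe rules, the code sets, leaving out each array and blocking on the pair.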

Additional observations from a re-analysis of the deposited data

Results flagged for a closer look

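In 29 lists and 140 named genes, the highest or lowest of the 7 control arrays was tested for a wide gap to its neighbour. About 5% of groups not picked for their values show such a gap by chance. Most named genes were picked for their values in these arrays, so that share does not apply to them. Over all 22180 genes, replicate 6 was far below the others in 442 and far above in 349. Of the 29 lists 1 was flagged over the 7 arrays, which is not above the 5% seen by chance. Lists were also tested within replicates 4 to 7. Replicate 6 was far below the others in the stem cell mean (7.44, next 8.00), also within replicates 4 to 7, and, within those 4, in the cholesterol mean (6.88, next 7.80). It was also far below in Angpt1 (6.28), Hlf (5.31), Hoxa9 (4.97), Ptprc (6.98) and the megakaryocyte and erythroid regulator gene Nfe2 (4.43). The same held for the sterol enzyme gene Cyp51 (6.24), the serine synthesis genes Phgdh (6.64) and Psat1 (7.56), the replication genes Mcm6 (9.18) and Uhrf1 (8.12), and the ribosomal protein gene Rpl6 (6.00). Replicate 7 was far above the others in Hbb-y (8.90) and Mcpt8 (7.87), replicate 3 in Cd48 (6.80), and replicate 1 far below in Hspa1b (6.20).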

How the results depend on the processing

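The count of 11 genes was 8, 12, 12 and 13 without an intensity trend, with a robust trend, among genes above the median level and after quantile normalization. It was 1 after cyclic loess normalization, 0 with the mean of all probes of a gene (4284 genes at an unadjusted p under 0.05), 0 with replicates 4 and 5 averaged (4168), 376 with the 3 code sets as separate levels, 0 in the GSI partners (3715) and 453 without replicates 1 and 6. With the replicate block over the 14 paired arrays it was 2104, and as a replicate block by pair means 0. Leaving out 1 array gave 0 to 305. The causes were not tested.

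Among lists, restriction to genes above the median level gave medians of -0.52 (sort genes), -0.53 (mast cell and basophil) and -0.10 (lymphoid), and the GSI partners gave -0.67 (early progenitor), -0.12 (neutrophil and monocyte), -1.05 (macrophage) and 0.44 (stroma). Leaving out 1 array gave -0.84 to -0.06 for macrophage and -0.03 to 0.02 for lymphoid genes. Of 140 named genes, 10 turned direction when 1 array was left out: COX1 (-0.09 to 0.01), Ifit1 (-1.13 to 0.39), Irf7 (-0.94 to 0.50), ND2 (-0.01 to 0.12), Oas1g (-1.75 to 0.16), Oasl2 (-1.17 to 0.46), Prg2 (-0.86 to 1.09), Rpl6 (-0.50 to 0.02), Slamf1 (-0.04 to 0.22) and Xist (-0.43 to 0.17). Without replicates 1 and 6 the direction turned for COX1 (0.02), CYTB (0.01), Dkc1 (0.01), Gm8995 (0.23), Ifit1 (0.97), Ifit2 (0.37), Irf7 (0.79), Oas1g (1.05), Oasl2 (0.99), Prg2 (0.05), Rpl6 (0.08) and Xist (0.42). In the GSI partners it turned for Ahsg (-0.17), Alb (-0.03), Atp5g1 (0.17), Ctsg (-0.22), Eif2s3y (0.18), H1f2 (-0.45), Hbb-y (-0.58), Hes5 (0.02), Ltf (-0.24), Rpl6 (0.01) and Uty (0.09). Cyclic loess turned ND2 (-0.02) and Prg2 (0.00068), and averaging replicates 4 and 5 turned Prg2 (0.12).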
